A study of Homo sapiens with 9 samples.

Results

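NRF2 targets and antioxidant enzymes are described here as 41 genes of the deposited count table, chosen by symbol from a fixed list, out of 25382 genes with an entry. They were measured by sequencing total RNA from 501mel, an established human melanoma cell line, collected 24 h after transfection of a DsiRNA. A DsiRNA is a short double-stranded RNA that Dicer cuts into a silencing guide. The 9 libraries fall into 3 groups of 3 biological replicates: the control DsiRNA NC1, TBX3 DsiRNA 13.6 and TBX3 DsiRNA 13.8. TBX3 is a T-box transcription factor, and the series asks what its loss does in pigment cells. All groups are the same cell line and all were lipofected; cells without a DsiRNA were not analysed here.

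NRF2, the product of NFE2L2, is the transcription factor that switches on much of the cell's defence against oxidants and reactive chemicals. In resting cells KEAP1 holds NRF2 and hands it to a ubiquitin ligase for destruction; oxidants modify KEAP1, and NRF2 then enters the nucleus, pairs with a small MAF protein such as MAFG and binds antioxidant response elements. The genes it acts on make glutathione and thioredoxin, regenerate NADPH, store iron and detoxify quinones, and pigment cells draw on them because melanin synthesis itself gives off quinones and peroxide.

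Of the 41 genes, 39 had enough reads to be tested, among 14731 genes in all. GPX3 and MGST1 had at most 8 and 7 reads in a library. Levels are given as CPM, reads scaled by the library's effective total, and differences as log2 fold change ± SE from edgeR's quasi-likelihood fit over all 9 libraries. "Rose", "fell", "higher" and "lower" in a count mean a Benjamini-Hochberg adjusted p under 0.05 over all genes tested, and each p-value measures only the spread between these libraries. Library totals ran from 38105026 to 52272147 counted reads. TBX3 itself stood at 88.6, 83.8 and 84.0 CPM in the control libraries, at 46.4, 41.03 and 39.4 with 13.6 and at 36.1, 33.7 and 36.2 with 13.8, a log2 fold change of −1.02 ± 0.07 and −1.27 ± 0.07, so both knockdowns left a part of the transcript. The summed level of 8 melanocyte and melanoma markers ran from 13360 to 15380 CPM in control, from 13840 to 15000 with 13.6 and from 17390 to 18190 with 13.8. PMEL and TYRP1 hold most of that sum, and the 8 did not move together with 13.8: TYRP1 (1.12 ± 0.06), TYR (0.84 ± 0.07), DCT (0.64 ± 0.10) and S100B (1.59 ± 0.10) were higher, MITF (−0.97 ± 0.11), SOX10 (−0.35 ± 0.07) and MLANA (−0.27 ± 0.07) lower, and PMEL did not pass (−0.20 ± 0.08). With 13.6, 3 were higher and 3 lower. Of 4 keratinocyte markers KRT5 had no reads in any library, KRT1 and KRT14 at most 0.0260 CPM, and KRT10 39.2 to 46.2 CPM, with no difference past the test. Among leukocyte markers CD3E and PTPRC stayed under 0.461 CPM, while CD68 was higher with 13.6 by 0.44 ± 0.06 and LYZ, at 0.584 to 1.67 CPM, higher with 13.8 by 0.83 ± 0.27. Of 6 fibroblast markers 4 could be tested, and all 4 were higher with 13.8, with a summed level of 14.92 to 18.34 CPM against 4.45 to 5.98 in control and 4.0 to 5.11 with 13.6. In bulk RNA, more cells of a kind and more RNA per cell cannot be told apart, and the part of these markers in the values below was not tested.

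Among the 39 genes tested, 7 were higher and 12 lower with 13.6 than in control, and 20 were neither, with a median log2 fold change of −0.05. Over all genes 49.9% were called in this comparison, 24.9% higher and 25.0% lower, with a median of −0.01. With 13.8, 13 were higher, 10 lower and 16 not past the test, with a median of 0.05, beside 55.5% of all genes called, 27.5% higher and 27.9% lower, and a median of 0.01. For the mean of both DsiRNAs, 8 were higher and 11 lower, where 50.2% of all genes were called, 23.3% higher and 26.9% lower. Set directly against each other, 13.6 was higher than 13.8 for 10 genes and lower for 17, with 12 not past the test and a median of −0.14, beside 61.1% of all genes, 30.9% higher and 30.2% lower. The share of antioxidant genes called is thus near that of all genes in each comparison with control. Between the DsiRNAs 27 of the 39 were called, a somewhat larger share than over all genes. There the lower genes outnumbered the higher ones, unlike over all genes, and this difference in shares was not tested. The median size of the log2 fold change of the 39 genes, without its sign, was 0.23 with 13.6 and 0.26 with 13.8, against 0.31 and 0.35 over all genes. Between the DsiRNAs it was 0.36 against 0.39. The genes were not matched for level here, and genes with few reads have noisier values.

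**Figure D1:**
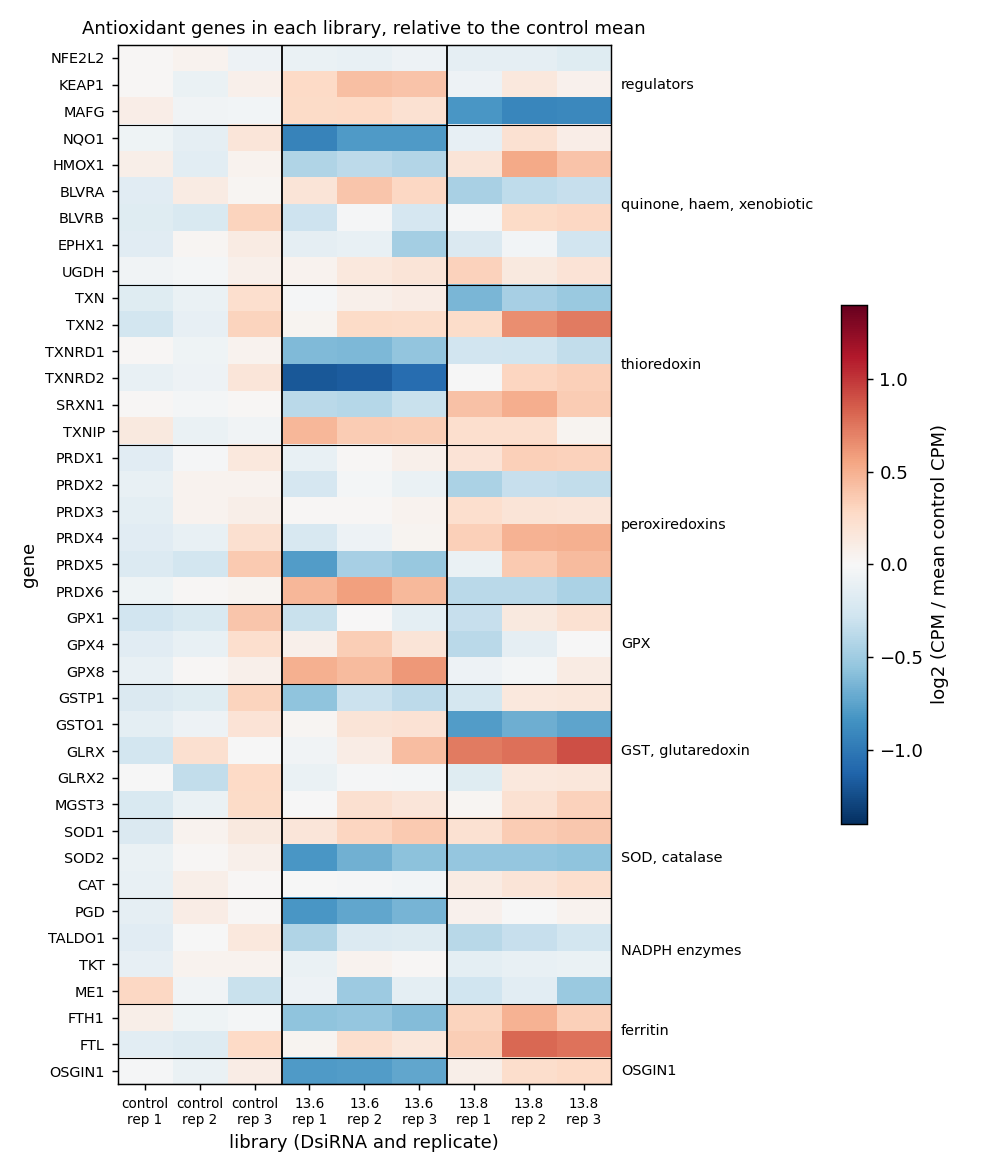
Level of each of the 39 tested antioxidant genes (rows, grouped by role) in each of the 9 libraries (columns), as log2 of CPM over the mean CPM of the 3 control libraries; red is above and blue below the control mean. TXNRD2, NQO1 and OSGIN1 are blue in all 3 libraries of 13.6, and MAFG, GSTO1 and TXN are blue in all 3 of 13.8.

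Single libraries bear on these counts. Control replicate 3 was the highest of the 3 controls for 26 of the 39 genes, where it was the highest for 35.1% of all genes, and control replicate 1 the lowest for 24, against 33.4% of all genes. Replicate 1 was also the lowest of its group for 28 of the 39 with 13.6 and for 27 with 13.8, where it was the lowest for 35.8% and 35.2% of all genes. Without control replicate 3, 13 genes were higher and 9 lower with 13.6, 17 and 11 with 13.8, and 12 and 12 for the mean of both; without control replicate 1 or 2 the mean of both gave 4 higher and 11 lower. With 13.6, leaving out control replicate 3 brought TXN, TXN2, FTL, GPX4, GSTO1 and MGST3 past the test as higher and took TALDO1, PRDX5 and GSTP1 out of the lower genes. With 13.8 it brought TXNRD2, PRDX5, BLVRB and MGST3 in as higher and ME1 as lower. Leaving out replicate 1 of 13.6 took the same TALDO1, PRDX5 and GSTP1 out of the lower genes with 13.6, and leaving out replicate 1 of 13.8 took NFE2L2 and UGDH out and brought TXNRD2 and PRDX5 in as higher with 13.8. The balance of higher to lower genes thus rests on which libraries are kept, and results are given gene by gene.

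For a few genes all 6 knockdown libraries lay beyond all 3 controls. For the mean of both DsiRNAs against control, SOD2 had the largest such change, a log2 fold change of −0.62 ± 0.06 (adjusted p = 3.91e-06), followed by TXNRD1 at −0.45 ± 0.05 (adjusted p = 4.41e-06), both lower. TALDO1 was lower at −0.29 ± 0.07 (adjusted p = 0.00478) and SOD1 higher at 0.30 ± 0.08 (adjusted p = 0.005). NFE2L2 was below the controls in all 6 libraries too, at −0.12 ± 0.05, and did not pass (adjusted p = 0.0534). This comparison lay near the threshold: it passed with DESeq2 (adjusted p = 0.0272), with DESeq2's size factors (0.0496), with library totals (0.0387) and without control replicate 3 (−0.15, adjusted p = 0.0205). Of the 39 genes, 1 was called higher and 3 lower with both DsiRNAs, beside 1714 and 1586 of all 14731 genes. How many of all genes had all 6 knockdown libraries beyond the controls was not counted.

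The antioxidant response element has a core that can be written TGACNNNGC, and TGACTCAGC is its classic form. RefSeq promoter windows of the build GRCh38.p14, from 250 bases before to 50 after a start site, were matched by symbol to 35 of the 41 genes. The core was found on either strand in 8 of the 35, or 22.9%, beside 16.1% of all 27305 symbols in the table. The word TGACTCAGC, whose every copy is also a copy of the core, was in 2 of the 35, or 5.71%, beside 0.689% of all symbols. Those 2 are the windows of GSTP1, a glutathione transferase in which this element is well known, and of ME1, a malic enzyme that makes NADPH, shown here from 5′ to 3′ on the gene's strand with each match in capitals. A match is a run of letters only, with no measure of binding in these data.
GSTP1 (chr11:67583562-67583861, plus strand): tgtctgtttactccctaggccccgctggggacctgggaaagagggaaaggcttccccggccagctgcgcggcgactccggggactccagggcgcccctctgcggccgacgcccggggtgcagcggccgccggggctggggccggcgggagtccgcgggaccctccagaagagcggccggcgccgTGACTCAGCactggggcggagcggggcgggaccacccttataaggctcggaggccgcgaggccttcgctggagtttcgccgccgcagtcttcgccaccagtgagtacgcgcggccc
ME1 (chr6:83431002-83431301, minus strand): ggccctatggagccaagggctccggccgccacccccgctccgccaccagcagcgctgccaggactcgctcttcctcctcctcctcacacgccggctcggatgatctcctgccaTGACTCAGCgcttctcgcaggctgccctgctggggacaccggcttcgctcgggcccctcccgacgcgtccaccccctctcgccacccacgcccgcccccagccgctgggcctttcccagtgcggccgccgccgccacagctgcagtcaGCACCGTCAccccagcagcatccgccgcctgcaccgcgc

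The match lies at position −66 from the start site in GSTP1 and at −137 in ME1, which holds a further copy of the core on the other strand at position 12. The genes differ widely in level. GSTP1 was the second most abundant of the 41 per kilobase in control, at 1712 ± 356 CPM per kilobase of exonic length (SD, n = 3), and ME1 one of the rarest, at 3.11 ± 0.65. The remaining windows with the core belong to PGD, EPHX1, GSTO1, MGST1, TXNRD1 and KEAP1, of which 5 stretches around the matches are shown because the genes recur below.
TXNRD1 (chr12:104215655-104215804, plus strand): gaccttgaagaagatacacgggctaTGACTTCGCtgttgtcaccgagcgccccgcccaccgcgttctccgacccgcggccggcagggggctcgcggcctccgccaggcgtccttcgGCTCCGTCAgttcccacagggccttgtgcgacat
PGD (chr1:10398838-10398896, plus strand): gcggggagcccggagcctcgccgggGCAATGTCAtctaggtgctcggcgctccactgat
GSTO1 (chr10:104254642-104254764, plus strand): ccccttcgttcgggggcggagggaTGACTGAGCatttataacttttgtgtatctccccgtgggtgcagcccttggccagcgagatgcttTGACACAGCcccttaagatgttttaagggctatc
KEAP1 (chr19:10502769-10502850, minus strand): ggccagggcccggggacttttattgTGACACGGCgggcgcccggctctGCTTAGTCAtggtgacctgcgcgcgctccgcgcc
EPHX1 (chr1:225825251-225825309, plus strand): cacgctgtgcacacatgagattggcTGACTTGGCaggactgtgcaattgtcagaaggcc

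Among the 7 genes printed, those with a call took both directions. With 13.6 PGD changed by −0.72, TXNRD1 by −0.60, GSTP1 by −0.41 and KEAP1 by 0.37 on the log2 scale. With 13.8 GSTO1 changed by −0.73 and TXNRD1 by −0.30. EPHX1 and ME1 passed the test with neither DsiRNA. NQO1, TXNRD2, SRXN1, OSGIN1 and MAFG, whose values follow, hold no copy of these letters within their windows. Sequence outside the windows was not searched, so elements further from a start site would be missed.

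**Figure D2:**
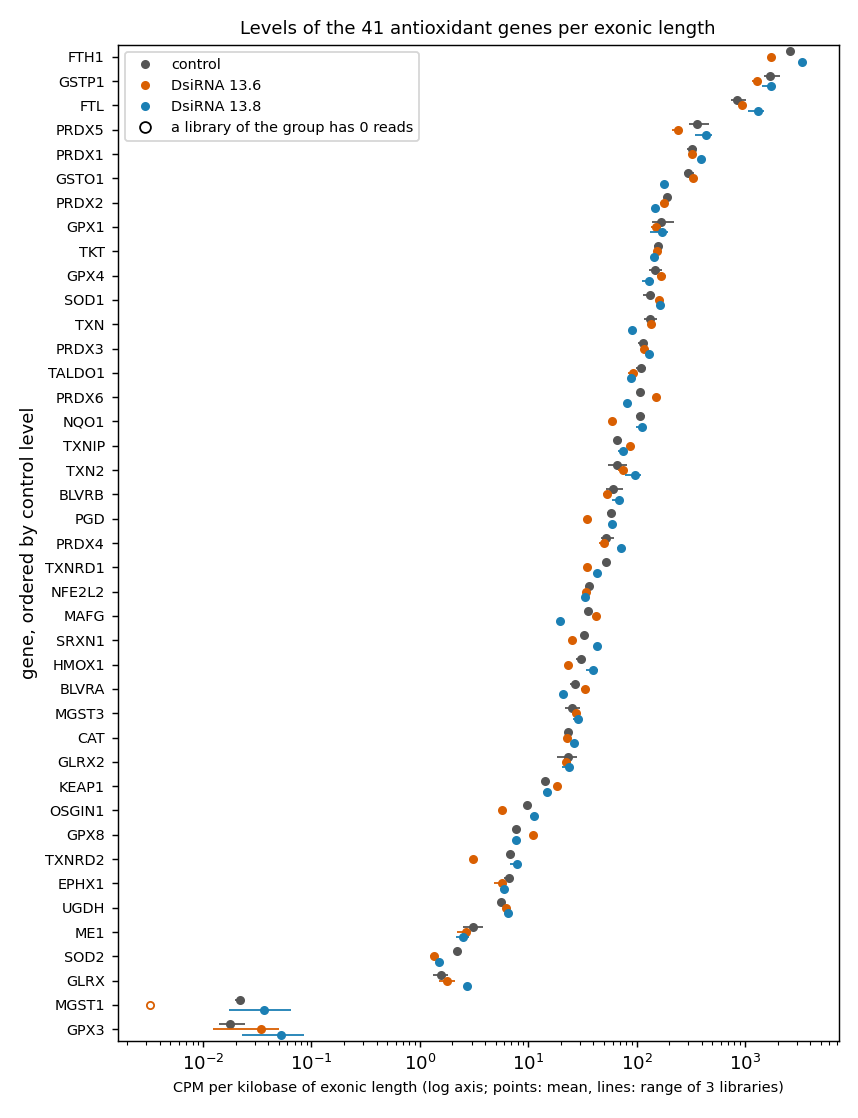
Level of all 41 antioxidant genes as CPM per kilobase of exonic length on a log axis, ordered by the control level; points are means and lines the range of the 3 libraries of a group, with an open point where a library of the group has 0 reads. FTH1, GSTP1 and FTL lead in every group, and GPX3 and MGST1 lie far below the rest.

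Per kilobase of exonic length, the most abundant of the 41 transcripts in control was FTH1, the heavy chain of ferritin, at 2600 ± 141 CPM per kilobase (SD, n = 3). GSTP1 and the ferritin light chain FTL, at 848 ± 155, came next, and then the peroxiredoxins PRDX5 and PRDX1, at 364 ± 90.9 and 325 ± 35.0. The ranges of FTH1 and GSTP1 did not overlap in control, and those of PRDX5, PRDX1 and GSTO1 did. At the low end of the tested genes stood ME1, the mitochondrial superoxide dismutase SOD2, at 2.19 ± 0.13, and the glutaredoxin GLRX, at 1.57 ± 0.26. The low rank of SOD2 rests on its exonic length of 17721 bases, which takes in every exon of the annotation used. Without division by length, SOD2 had a mean of 38.8 CPM in control, above BLVRA at 31.7 and ME1 at 10.5. FTH1, GSTP1 and FTL led the order in all groups. PRDX5 ranked 4 in control and with 13.8 and 6 with 13.6, where GSTO1 ranked 4. GPX3, a secreted glutathione peroxidase, had 4 reads over the 3 control libraries, 8 with 13.6 and 14 with 13.8, and MGST1, a membrane-bound glutathione transferase, had 6, 1 and 12, so that neither can be compared.

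The 3 regulators were all expressed, and MAFG and KEAP1 differed between the DsiRNAs. MAFG, the small MAF partner of NRF2, was at 199, 180 and 182 CPM in control, 226, 226 and 216 with 13.6 and 106, 99.4 and 99.8 with 13.8. No library of a DsiRNA overlapped the controls: all 3 with 13.6 were above them, and all 3 with 13.8 were near 0.544 times their level. The log2 fold change was 0.25 ± 0.06 with 13.6 (adjusted p = 0.00296) and −0.88 ± 0.06 with 13.8 (adjusted p = 5.38e-08), and the direct difference of 13.6 from 13.8 was 1.13 ± 0.06 (adjusted p = 5.56e-09). KEAP1, the sensor that holds NRF2, stood at 45.9, 42.5 and 47.5 CPM in control, at 55.1, 60.5 and 59.5 with 13.6 and at 43.1, 50.2 and 47.1 with 13.8. All 3 libraries of 13.6 lay above the controls and those of 13.8 overlapped them, with a log2 fold change of 0.37 ± 0.07 (adjusted p = 0.00106), against 0.05 ± 0.07 with 13.8 and a direct difference of 0.32 ± 0.07 (adjusted p = 0.00204). NFE2L2, which encodes NRF2 itself, changed little: 168, 171 and 158 CPM in control, 155, 154 and 157 with 13.6 and 152, 152 and 147 with 13.8. All 6 knockdown libraries were below the 3 controls, and the difference passed the test with 13.8 (log2 fold change −0.14 ± 0.05, adjusted p = 0.0406) and not with 13.6 (−0.09 ± 0.05, adjusted p = 0.18). The call was lost when any library other than control replicate 3 was left out, with log2 fold changes from −0.12 to −0.15. The activity of NRF2 is set largely at the level of the protein, which RNA counts do not show.

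Among the 6 enzymes that handle quinones, haem and xenobiotics, with 13.6 1 rose and 2 fell, and with 13.8 2 rose and 1 fell. Over all genes, 24.9% were higher and 25.0% lower with 13.6, and 27.5% and 27.9% with 13.8. These shares stand beside this and every later count of a smaller group. NQO1, a quinone reductase and a textbook NRF2 target, was at 321, 306 and 374 CPM in control, 175, 192 and 192 with 13.6 and 309, 386 and 356 with 13.8. The 13.6 libraries were all below the controls and 13.8 ran among them. The log2 fold change was −0.84 ± 0.09 with 13.6 (adjusted p = 6.4e-06) and 0.07 ± 0.09 with 13.8 (adjusted p = 0.535), and 13.6 was lower than 13.8 by a log2 difference of −0.91 ± 0.09 (adjusted p = 1.84e-06). HMOX1, haem oxygenase 1, which opens the haem ring and frees iron, stood at 59.0, 50.1 and 57.4 CPM in control, at 41.4, 43.1 and 41.6 with 13.6 and at 62.8, 80.3 and 73.5 with 13.8. The 3 groups did not overlap: 13.6 was lowest and 13.8 highest, with log2 fold changes of −0.40 ± 0.09 (adjusted p = 0.00215) and 0.38 ± 0.09 (adjusted p = 0.00256). BLVRA, the biliverdin reductase that acts on the product of haem oxygenase, had the reverse order, at 28.4, 34.2 and 32.4 CPM in control, 35.8, 41.4 and 38.8 with 13.6 and 23.1, 24.8 and 25.4 with 13.8. It rose by 0.29 ± 0.08 with 13.6, a call lost without replicate 2 of that group (0.24, adjusted p = 0.0601), and changed by −0.37 ± 0.08 with 13.8 (adjusted p = 0.00203). BLVRB, which reduces flavins and a minor biliverdin isomer, ranged from 53.7 to 77.2 CPM in control and passed the test against control with neither DsiRNA (−0.17 ± 0.14 and 0.19 ± 0.14). EPHX1, the microsomal epoxide hydrolase, did not pass either (−0.23 ± 0.12 and −0.17 ± 0.11). UGDH, which makes the sugar donor for glucuronidation, rose with 13.8 by 0.22 ± 0.08 (adjusted p = 0.0286), with 20.2 CPM in the highest control and 21.0 in the lowest 13.8 library; the call is lost without control replicate 1 or 2 or without 13.8 replicate 1 or 3.

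**Figure D3:**
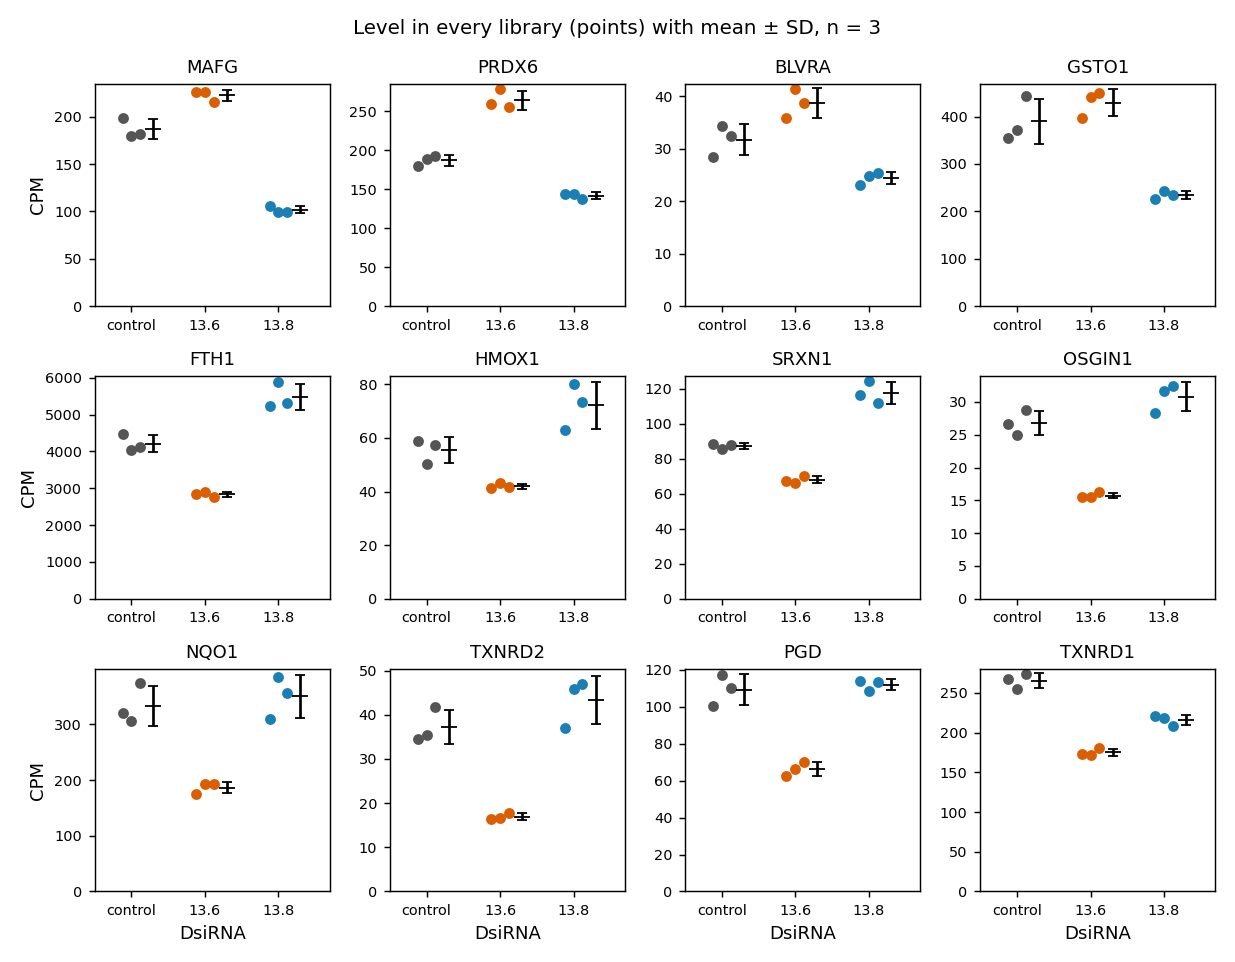
Level in CPM of 12 antioxidant genes in each library (points) with mean ± SD of 3 libraries; each panel has its own axis from 0. MAFG, PRDX6 and BLVRA are highest with 13.6 and lowest with 13.8, FTH1, HMOX1 and SRXN1 the reverse, and NQO1, TXNRD2 and PGD lie below the controls with 13.6 and overlap them with 13.8.

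The thioredoxin system passes electrons from NADPH through a reductase to thioredoxin, which in turn reduces peroxiredoxins and other proteins. Of its 6 genes 1 rose and 3 fell with 13.6, and 2 rose and 2 fell with 13.8, beside the same shares of all genes. TXNRD2, the mitochondrial reductase, had the largest change of all 39 genes: 34.6, 35.4 and 41.7 CPM in control, 16.4, 16.6 and 17.8 with 13.6 and 37.1, 45.9 and 47.0 with 13.8. Every 13.6 library was under the lowest control, at 0.456 times the control level by the fit, and 13.8 overlapped the controls. Its log2 fold change was −1.13 ± 0.10 with 13.6 (adjusted p = 1.1e-06) and 0.22 ± 0.10 with 13.8 (adjusted p = 0.0728). TXNRD1, the cytosolic reductase whose promoter stretch with 2 core matches is printed above and whose other window with the core, chr12:104286782-104287081, holds 1 match at position −102, was at 267, 255 and 273 CPM in control, 173, 172 and 180 with 13.6 and 221, 218 and 209 with 13.8. It fell with both: all 6 knockdown libraries were below the controls, with log2 fold changes of −0.60 ± 0.06 (adjusted p = 1.52e-06) and −0.30 ± 0.06 (adjusted p = 0.000495), and the 13.6 libraries were below those of 13.8 (difference −0.30 ± 0.06, adjusted p = 0.000374). TXN, cytosolic thioredoxin, stood at 102, 108 and 135 CPM in control, 114, 121 and 123 with 13.6 and 74.1, 83.3 and 80.7 with 13.8. Only with 13.8 did its libraries leave the control range, with a log2 fold change of −0.54 ± 0.09 (adjusted p = 0.000264). The difference of 13.6 from 13.8 was 0.59 ± 0.09 (adjusted p = 0.000107).

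TXN2, the mitochondrial thioredoxin, ranged from 106 to 158 CPM in control and from 152 to 211 with 13.8, which overlap by 1 library of each, and rose by 0.56 ± 0.15 (adjusted p = 0.00767). That call is lost when genes with few reads are kept in the fit (0.55, adjusted p = 0.0655). SRXN1, sulfiredoxin, which repairs over-oxidised peroxiredoxins and is an NRF2 target, was tight within groups: 88.4, 85.6 and 88.1 CPM in control, 67.5, 66.2 and 70.2 with 13.6 and 116, 124 and 112 with 13.8. The groups did not overlap, the 13.6 libraries being lowest and the 13.8 libraries highest. It fell with 13.6 (−0.36 ± 0.06, adjusted p = 0.000216) and rose with 13.8 (0.43 ± 0.06, adjusted p = 4.04e-05). TXNIP, which binds and blocks reduced thioredoxin, held 199 to 234 CPM in control and 271 to 293 with 13.6, where it rose (0.39 ± 0.08, adjusted p = 0.000838) and gave 0.17 ± 0.08 with 13.8 (adjusted p = 0.071).

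Peroxiredoxins are abundant thiol enzymes that reduce hydrogen peroxide; PRDX3 works in mitochondria, PRDX4 in the secretory pathway and PRDX6 with glutathione rather than thioredoxin. With 13.6, 1 of the 6 rose and 1 fell, and with 13.8, 3 rose and 2 fell, beside the same shares of all genes. PRDX6 was at 179, 189 and 192 CPM in control, 259, 278 and 255 with 13.6 and 144, 144 and 137 with 13.8. No groups overlapped, and 13.6 was highest and 13.8 lowest, with log2 fold changes of 0.50 ± 0.06 (adjusted p = 1.12e-05) and −0.40 ± 0.06 (adjusted p = 6.25e-05). The direct difference was 0.90 ± 0.06 (adjusted p = 3.22e-08). PRDX5 showed wider spread: 285, 272 and 419 CPM in control, 189, 235 and 226 with 13.6 and 306, 419 and 443 with 13.8. It fell with 13.6 by a log2 fold change of −0.59 ± 0.17 (adjusted p = 0.0147), with all 3 libraries under the lowest control. Control replicate 3 stands well above the other two controls, and without it the call was lost (−0.36, adjusted p = 0.0624), as it was without 13.6 replicate 1 (−0.50, adjusted p = 0.0602).

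PRDX4 rose with 13.8, where its libraries held 90.3 to 102 CPM against 64.5 to 83.9 in control (0.44 ± 0.10, adjusted p = 0.00208). PRDX1 rose as well, with 463 to 511 CPM against 364 to 452 in control (0.28 ± 0.08, adjusted p = 0.0101). PRDX3 rose by 0.20 ± 0.06 (adjusted p = 0.0157), a call lost without control replicate 1 (0.13, adjusted p = 0.0696). PRDX2, the cytosolic form most abundant in red cells, fell with 13.8, to 140 to 152 CPM against 177 to 196 in control (−0.37 ± 0.07, adjusted p = 0.000509). With 13.6 these last 4 genes had log2 fold changes between −0.11 and 0.03 and did not pass the test.

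**Figure D4:**
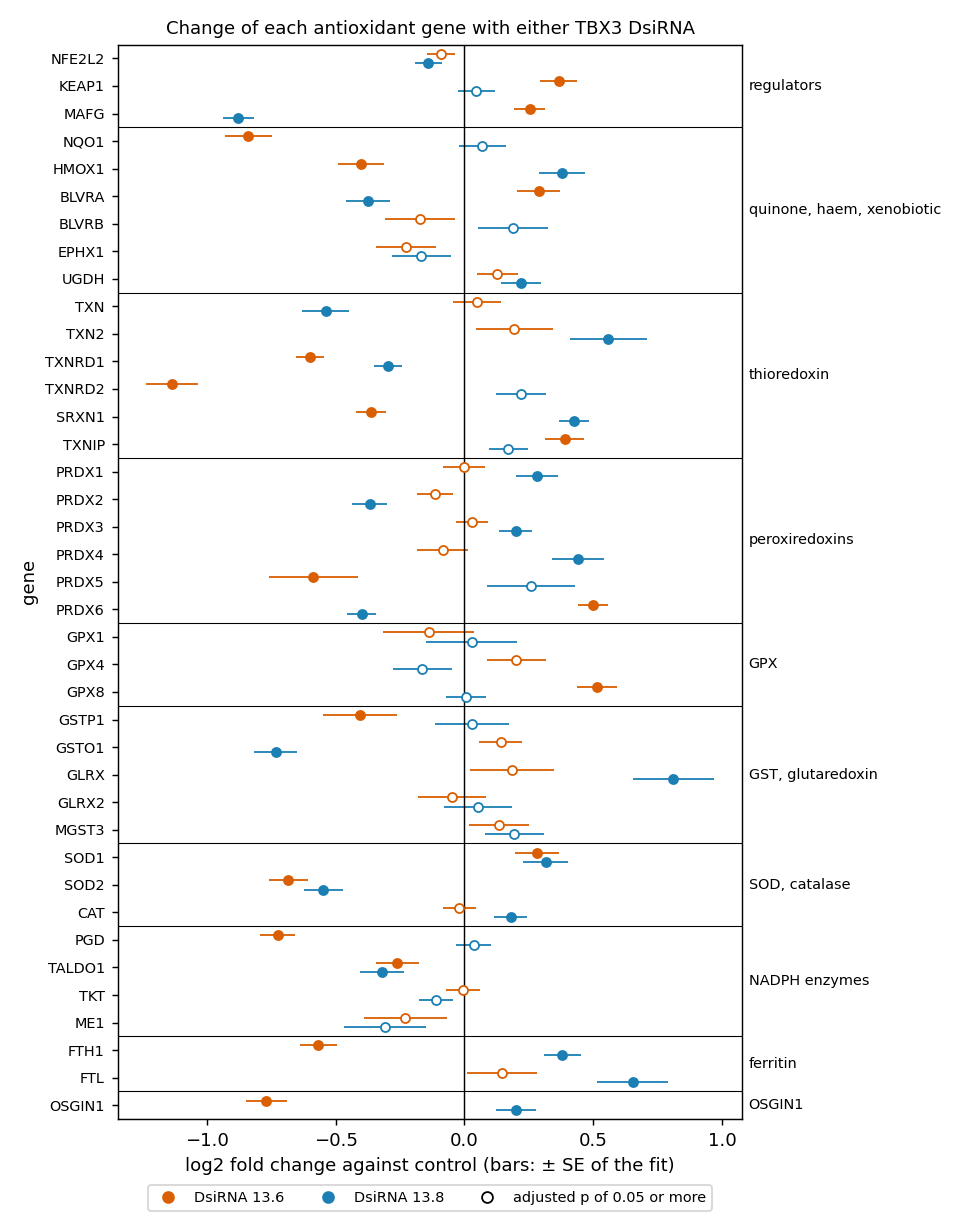
Log2 fold change of each of the 39 tested antioxidant genes against control with DsiRNA 13.6 (orange) and 13.8 (blue), with bars of ± SE from the fit; filled points passed at an adjusted p under 0.05 and open points did not. TXNRD2 has the largest change, −1.13 with 13.6, and MAFG the largest with 13.8, −0.88; both comparisons use the same control libraries.

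Glutathione peroxidases spend glutathione to reduce peroxides, and GPX4 is the one that acts on lipid peroxides within membranes and guards against ferroptosis. Of the 3 that could be tested only GPX8, a peroxidase of the endoplasmic reticulum, passed against control, with 13.6. Its libraries held 25.6, 27.7 and 28.9 CPM in control, 38.5, 37.2 and 41.7 with 13.6 and 26.0, 26.8 and 29.6 with 13.8. The 13.6 libraries lay above all others, with a log2 fold change of 0.52 ± 0.08 (adjusted p = 0.000106) and a difference from 13.8 of 0.51 ± 0.08 (adjusted p = 7.23e-05). GPX4 held 162 to 212 CPM in control, 190 to 229 with 13.6 and 139 to 180 with 13.8. Neither DsiRNA passed against control for it (0.20 ± 0.12 and −0.16 ± 0.12), while 13.6 was higher than 13.8 by 0.36 ± 0.12 (adjusted p = 0.0156). That difference was lost without 13.6 replicate 2 or 13.8 replicate 1. GPX1, the main cytosolic form, ranged from 199 to 314 CPM within the control group alone and passed in no comparison (−0.14 ± 0.18 and 0.03 ± 0.18).

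Glutathione transferases attach glutathione to reactive compounds, and glutaredoxins remove it from proteins. GSTO1, an omega-class transferase, was at 354, 371 and 444 CPM in control, 397, 442 and 450 with 13.6 and 227, 243 and 234 with 13.8. All 13.8 libraries were far below the controls and those of 13.6 overlapped them, with log2 fold changes of −0.73 ± 0.08 (adjusted p = 7.32e-06) and 0.14 ± 0.08 (adjusted p = 0.181). The difference of 13.6 from 13.8 was 0.87 ± 0.08 (adjusted p = 1.23e-06). GLRX, the cytosolic glutaredoxin, was scarce, at 2.66, 3.69 and 3.15 CPM in control, 3.05, 3.41 and 4.29 with 13.6 and 5.27, 5.43 and 5.94 with 13.8. It rose with 13.8 by 0.81 ± 0.16 (adjusted p = 0.000707), with every library above the controls, the largest rise of the 39 genes in that comparison. GSTP1 held 1431, 1463 and 2040 CPM in control, 1113, 1334 and 1279 with 13.6 and 1392, 1819 and 1830 with 13.8. It fell with 13.6 by a log2 fold change of −0.41 ± 0.14 (adjusted p = 0.0341). Control replicate 3 is again the highest of its group, and without it the value was −0.22, adjusted p = 0.111; the call was also lost without 13.6 replicate 1 or 3. Neither GLRX2, a mitochondrial glutaredoxin (−0.05 ± 0.13 and 0.05 ± 0.13), nor MGST3 (0.13 ± 0.12 and 0.19 ± 0.11) passed against control. Without control replicate 3, MGST3 passed with both DsiRNAs, at 0.29, adjusted p = 0.015 with 13.6 and 0.34, adjusted p = 0.00416 with 13.8.

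Superoxide dismutases turn superoxide into hydrogen peroxide, which catalase breaks down. SOD2, the manganese enzyme of mitochondria, stood at 36.3, 39.3 and 40.8 CPM in control, 22.1, 24.3 and 26.0 with 13.6 and 26.7, 26.6 and 26.3 with 13.8. All 6 knockdown libraries were under the lowest control, and it fell with both, by log2 fold changes of −0.68 ± 0.08 (adjusted p = 7.48e-06) and −0.55 ± 0.08 (adjusted p = 3.88e-05). The DsiRNAs did not differ from each other past the test (−0.14 ± 0.08, adjusted p = 0.136). SOD1, the copper and zinc enzyme of the cytosol, was at 112, 133 and 142 CPM in control, 145, 158 and 166 with 13.6 and 149, 164 and 167 with 13.8. Here all 6 libraries lay above the highest control, though by little, and it rose by 0.28 ± 0.09 (adjusted p = 0.0153) and 0.32 ± 0.09 (adjusted p = 0.00715). With 13.6 that call was lost without control replicate 1 (0.19, adjusted p = 0.0594) or 13.6 replicate 3 (0.23, adjusted p = 0.0757). CAT, catalase, rose with 13.8, where it held at least 58.1 CPM against at most 56.6 in control (0.18 ± 0.06, adjusted p = 0.0291), a call lost without control replicate 1 or 13.8 replicate 2 or 3, and gave −0.02 ± 0.06 with 13.6.

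NADPH is the source of electrons for glutathione and thioredoxin reductases alike. Of the 4 genes grouped here with NADPH supply, which take in the pentose phosphate enzymes TALDO1 and TKT, none rose. With 13.6 2 of them fell, and with 13.8 1, beside the same shares of all genes. PGD, the second dehydrogenase of the pentose phosphate pathway, was at 100, 117 and 110 CPM in control, 62.3, 66.2 and 69.9 with 13.6 and 114, 109 and 113 with 13.8. The 13.6 libraries were all below the controls while 13.8 overlapped them, with log2 fold changes of −0.72 ± 0.07 (adjusted p = 1.95e-06) and 0.04 ± 0.07 (adjusted p = 0.682). TALDO1, the transaldolase of the same pathway, stood at 133, 149 and 165 CPM in control, 112, 131 and 131 with 13.6 and 114, 119 and 125 with 13.8. Its knockdown libraries were all below the lowest control, and its log2 fold change was −0.26 ± 0.08 with 13.6 (adjusted p = 0.0214) and −0.32 ± 0.08 with 13.8 (adjusted p = 0.00602). The 13.6 call was lost without control replicate 3 (−0.18, adjusted p = 0.0686) or 13.6 replicate 1 (−0.19, adjusted p = 0.107). TKT, the transketolase, held 432 to 493 CPM over the 9 libraries and passed with neither (−0.01 ± 0.07 and −0.11 ± 0.07). ME1, whose window with the classic word is printed above, held 7.32 to 12.8 CPM and passed with neither (−0.23 ± 0.16 and −0.31 ± 0.16).

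Ferritin locks away the iron that would otherwise turn peroxide into hydroxyl radicals. FTH1 was at 4463, 4028 and 4124 CPM in control, 2850, 2892 and 2769 with 13.6 and 5236, 5881 and 5307 with 13.8. The groups stood wholly apart, with 13.6 lowest and 13.8 highest. Its log2 fold change was −0.57 ± 0.07 with 13.6 (adjusted p = 2.55e-05) and 0.38 ± 0.07 with 13.8 (adjusted p = 0.00055), and the direct difference was −0.95 ± 0.07 (adjusted p = 1.44e-07). FTL was ordered differently: 673, 658 and 901 CPM in control, 764, 878 and 828 with 13.6 and 944, 1304 and 1262 with 13.8. The 13.8 libraries were above all controls, with a log2 fold change of 0.65 ± 0.14 (adjusted p = 0.00155), and those of 13.6 overlapped them (0.15 ± 0.14, adjusted p = 0.399). OSGIN1, a stress-induced growth inhibitor and NRF2 target, stood at 26.6, 25.0 and 28.8 CPM in control, 15.4, 15.5 and 16.2 with 13.6 and 28.3, 31.7 and 32.4 with 13.8. Each 13.6 library was well below the controls, with a log2 fold change of −0.77 ± 0.08 (adjusted p = 4.37e-06). With 13.8 the lowest library overlapped the highest control, and the rise of 0.20 ± 0.08 (adjusted p = 0.0416) was lost when any library but control replicate 3 or 13.8 replicate 1 was left out.

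Some of these counts may hold reads of other genes. FTH1 shares 56.6% of its exonic bases with BEST1 on the opposite strand, which had 8351 to 16230 reads a library where FTH1 had 117585 to 309909, and GENCODE names 25 pseudogenes of FTH1, 16 of FTL and 7 of TXN. PRDX1 shares 30.3% of its exonic bases with MMACHC, PRDX2 30.0% with a transcript of the opposite strand, NQO1 18.4%, SOD2 7.0% with WTAP and ACAT2, and NFE2L2 5.4%. The library kit keeps the strand, but whether the counting used it is not given in the sources used here, so these values are uncertain to that extent.

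The 3′ ends of the transcripts were read for 3 words of 7 letters that an earlier search of these same data had found in genes that were low with 1 of the DsiRNAs, so that their presence here supports nothing. GCTCTGT was found in the 3′ UTR of 4 of the 32 antioxidant genes searched, or 12.5%, beside 21.1% of 9990 genes. They are NQO1, TXNRD2, PGD and SOD2, each of which fell with 13.6, where 25.0% of all genes were lower. SOD2 fell with 13.8 too. AACTGTC was also in 4, or 12.5% beside 11% of genes: MAFG, TXNRD1, TKT and GPX8. MAFG and TXNRD1 fell with 13.8, where 27.9% of all genes were lower, and TKT and GPX8 did not pass with it. TXNRD1 fell further with 13.6, at −0.60 against −0.30 with 13.8. GATTAAC was in SOD2 alone, 3.12% beside 5.87%. The first site in 5 of these genes is shown with 10 bases on either side and the word in capitals.
NQO1: aagcagtcttGCTCTGTtacccaggct
TXNRD2: ggtggggctgGCTCTGTttgaggacag
PGD: ttgtaaagtaGCTCTGTgagagccacc
MAFG: gtatttataaAACTGTCttttagaaaa
TXNRD1: gtgatggaacAACTGTCaaatcagttt
No test of the words was made.

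The pathway reaches beyond the 41 genes, and a list of 77 further genes, of which 70 could be tested, was read from the same fit. With 13.6, 15 were higher and 26 lower (median −0.11), beside 24.9% and 25.0% of all genes (median −0.01). With 13.8, 28 were higher and 18 lower (median 0.09), beside 27.5% and 27.9% of all genes (median 0.01). Between the DsiRNAs, 15 were higher and 30 lower with 13.6 (median −0.11), beside 30.9% and 30.2% of all genes (median −0.02). The same shares of all genes stand beside each count of a smaller group here. Of the 8 genes that supply glutathione 1 rose and 6 fell with 13.6 (median −0.60), and 3 rose and 4 fell with 13.8 (median −0.10).

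GCLC, the catalytic subunit of the enzyme that starts glutathione synthesis, stood at 19.7, 21.3 and 18.9 CPM in control, 28.5, 28.8 and 26.5 with 13.6 and 47.7, 47.2 and 41.8 with 13.8. It rose with both, by 0.48 ± 0.08 and 1.19 ± 0.08 (adjusted p = 0.000197 and 3.88e-08), with no overlap between any of the groups. Its partner GCLM, the modifier subunit, went the other way, at 50.9, 47.8 and 50.5 CPM in control, 30.7, 30.1 and 31.8 with 13.6 and 32.9, 39.9 and 34.4 with 13.8 (−0.69 ± 0.08 and −0.48 ± 0.08). GSR, glutathione reductase, held 86.7, 96.5 and 93.9 CPM in control, 43.1, 44.0 and 44.5 with 13.6 and 80.0, 76.9 and 75.2 with 13.8. Every knockdown library was below the controls, and those of 13.6 were below those of 13.8 (−1.07 ± 0.06 and −0.26 ± 0.06, difference −0.82 ± 0.06, adjusted p = 1.14e-07). SLC7A11, the cystine importer, fell less than GSR with 13.6 and more than GSR with 13.8, with log2 fold changes of −0.23 ± 0.07 and −0.40 ± 0.07.

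Of 11 further regulators 4 rose and 2 fell with 13.6, and 6 rose and 3 fell with 13.8. MAFF, another small MAF, was at 267, 259 and 305 CPM in control, 138, 148 and 155 with 13.6 and 75.1, 78.3 and 81.6 with 13.8. It fell with both, by log2 fold changes of −0.91 ± 0.07 and −1.82 ± 0.07 (adjusted p = 3.42e-07 and 8e-10). BACH1, the repressor that competes with NRF2 for the same elements and for small MAF partners, held 44.2, 45.1 and 40.1 CPM in control, 74.9, 68.2 and 69.6 with 13.6 and 51.4, 49.4 and 48.7 with 13.8. All knockdown libraries lay above the controls (0.72 ± 0.07 and 0.21 ± 0.07), and 13.6 above 13.8 (0.51 ± 0.07, adjusted p = 2e-05). CUL3, the scaffold of the ligase that KEAP1 serves, did not pass (−0.07 ± 0.07 and 0.08 ± 0.07), and SQSTM1, the p62 adaptor that can draw KEAP1 away, passed with 13.8 only (−0.18 ± 0.09 and −0.24 ± 0.09), with overlapping libraries.

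Among 10 genes grouped with NADPH supply outside the 41, 2 rose and 4 fell with 13.6, and 1 rose and 4 fell with 13.8. NADK, which makes NADP from NAD, fell with 13.6, to 63.1 to 67.3 CPM against 108 to 110 in control (−0.73 ± 0.05, adjusted p = 1.9e-07) and did not pass with 13.8 (0.01 ± 0.05). ME2, a mitochondrial malic enzyme, fell with both (−0.38 ± 0.06 and −0.72 ± 0.06).

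**Figure D5:**
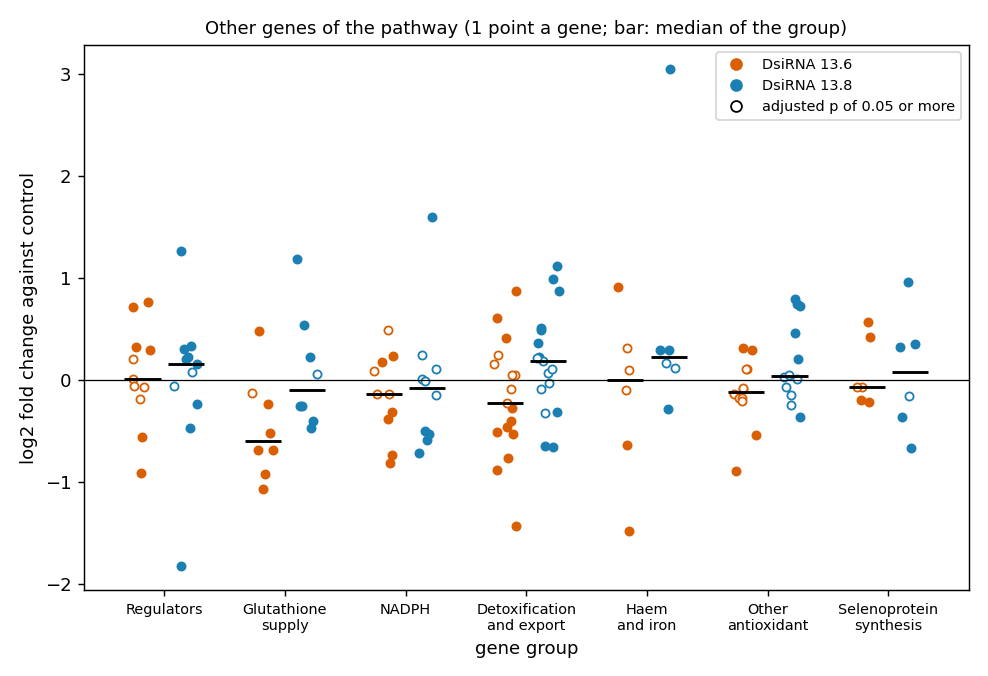
Log2 fold change against control of 70 further genes of the pathway with DsiRNA 13.6 (orange) and 13.8 (blue), 1 point a gene in 7 groups; filled points passed at an adjusted p under 0.05, and bars are medians. The glutathione supply group has its bar at −0.60 with 13.6; the point at 3.05 is SLC40A1 with 13.8, the iron exporter, a gene under 1 CPM in every library that was picked out after its value was seen.

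Of 17 tested detoxification and export genes 3 rose and 8 fell with 13.6, and 7 rose and 3 fell with 13.8. GSTA4, a transferase for lipid aldehydes, held 26.4, 30.5 and 31.5 CPM in control, 19.2, 21.2 and 20.8 with 13.6 and 61.4, 65.4 and 65.5 with 13.8. Its groups did not overlap: it fell with 13.6 (−0.53 ± 0.08) and rose with 13.8 (1.12 ± 0.08), with a difference of −1.65 ± 0.08 (adjusted p = 2.17e-09). In the haem and iron group, with 1 higher and 2 lower of 6 with 13.6 and 3 higher and 1 lower with 13.8, the naming rule gave NCOA4. NCOA4 is the receptor that delivers ferritin to lysosomes, and it held 202, 225 and 199 CPM in control, 78.0, 70.3 and 75.6 with 13.6 and 181, 163 and 168 with 13.8. The fall with 13.6, −1.48 ± 0.07 (adjusted p = 5.65e-09), left every library under the lowest control and under every 13.8 library, where the value was −0.29 ± 0.07. MSRB3, which reduces oxidised methionine, rose with 13.8, to 37.3 to 39.4 CPM against 22.8 to 24.0 in control (0.73 ± 0.07) and gave −0.09 ± 0.07 with 13.6. Of 12 other antioxidant genes 2 rose and 2 fell with 13.6, and 5 rose and 1 fell with 13.8. TXNRD1, TXNRD2, GPX1 and GPX4 are selenoproteins, and of the 6 listed genes that make or insert selenocysteine there were 2 higher and 2 lower with 13.6 and 3 higher and 2 lower with 13.8.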

How the data were processed

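Per the labels, total RNA of 501mel cells was sequenced in 9 libraries from a kit that keeps strand; STAR, HTSeq and hg19 appear in the submitters' processing notes, with cutadapt and DESeq2, and no version or counting option is given in the sources used here. In the deposited table are raw counts made by the authors, reads per gene symbol; 25398 entries include 16 repeats, which were dropped, and 28 date-like names, 0.200% of counts, kept in totals only.

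Counts were fitted in R 4.3.3 with edgeR 4.0.16 (filterByExpr, minimum 10 reads; TMM; robust quasi-likelihood, 1 mean per group, 6 residual degrees of freedom, two-sided, Benjamini-Hochberg over 14731 genes holding 99.97% of reads). CPM divides by the total times its TMM factor, 0.975 to 1.018. Pearson correlations of log2 CPM were 0.991 to 0.995 within groups and 0.964 to 0.978 between. Alternatives used DESeq2 1.42.0 and limma 3.58.1 (voom), other scalings, filters and thresholds, a replicate block and each library left out. The model was also run on simulated counts with 200 changed genes. That is far fewer than were called here, so the run does not show how the model behaves when so many genes change.

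The 41 genes, the lists, the motifs and the tests were chosen with earlier results of these data known. Named genes are TBX3, the 41, 8 fixed pathway genes and the 5 other pathway genes with the smallest adjusted p per DsiRNA. Some of these items are not reported here. Exonic lengths and overlaps are from GENCODE on GRCh38 and promoters from RefSeq (GRCh38.p14); coordinates are printed for promoter windows only, in that build, since counts rest on hg19. Protein sequences were not analysed here.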

Additional observations from a re-analysis of the deposited data

Results flagged for a closer look

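For the following 7 of the 39 genes, 17.9% beside 9.01% of all genes tested, the effects of the DsiRNAs had opposite directions, each past the test of edgeR. Their difference, 13.6 against 13.8, passed as well, but this was a condition of the choice and adds no support. That difference needs no control library, while the effects against control share the same 3. MAFG was higher with 13.6 than with 13.8 by a log2 difference of 1.13 ± 0.06, PRDX6 by 0.90 ± 0.06 and BLVRA by 0.66 ± 0.08. OSGIN1 was lower with 13.6 than with 13.8, at −0.97 ± 0.08, as were FTH1 at −0.95 ± 0.07, SRXN1 at −0.79 ± 0.06 and HMOX1 at −0.78 ± 0.09. The largest adjusted p of these differences was 1.56e-05, for BLVRA. TBX3 itself was higher with 13.6 than with 13.8 by 0.26 ± 0.07 (adjusted p = 0.00699). The BLVRA effect with 13.6 and the OSGIN1 effect with 13.8 each lost the test when single libraries were left out, and the cause of the opposite directions was not tested.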

How the results depend on the processing

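No log2 fold change that passed the test reversed under the alternatives, and no total of genes called moved by more than 1.5 times, while the split into higher and lower moved further without control replicate 3 (7 to 13 higher with 13.6). Of the calls among the 39 genes, 14 of 19 with 13.6, 16 of 23 with 13.8, 13 of 19 for the mean of both and 20 of 27 between the DsiRNAs held under every alternative, an adjusted p under 0.01 included. With each library left out in turn, the genes called ran from 16 to 22 with 13.6, 20 to 28 with 13.8, 15 to 24 for the mean and 22 to 28 between the DsiRNAs, and among the further pathway genes from 36 to 44, 37 to 45, 33 to 39 and 40 to 48. Over all genes they ran from 6304 to 7504, 7164 to 8452, 6623 to 7490 and 8021 to 9603. The strict promoter word gave 2 genes where the core gave 8.

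Over all genes, libraries with the same replicate number did not all deviate together: the correlations of their deviations ran from −0.179 to 0.187, 3 of 9 were over 0.1, and 5 of 9 libraries correlated best with their own number, so the numbers were not taken to pair the libraries. Among the 39 genes replicate 1 was the lowest of its group for 24, 28 and 27. With the replicate block the genes called were 21, 26, 23 and 28 in the same order; none was lost, and it added TXN2 and GPX4 with 13.6, TXNRD2, TXNIP and MGST3 with 13.8, NFE2L2, PRDX1, PRDX4 and MGST3 for the mean, and TXN2 between the DsiRNAs.

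Without a filter on low counts the calls of PRDX5 and GSTP1 with 13.6 and of NFE2L2, TXN2, OSGIN1, CAT and UGDH with 13.8 were lost; NFE2L2 was also lost with library totals, with a mean of at least 50 reads and, like OSGIN1 and CAT, with only the compared groups in the fit. The median log2 fold change of all genes lay between −0.0649 and 0.0206 with library totals and between −0.02 and 0.0126 with TMM. GLRX and ME1, with 123 and 342 reads in their lowest library, are limited by depth, and GPX3 and MGST1 cannot be judged at this depth.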
